A study of Homo sapiens with 18 samples.

Results

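Filtered wood smoke was compared with clean air in A549 cells, a human line derived from a lung carcinoma and widely used as a model of the alveolar epithelium. The comparison took every A549 library labelled as filtered smoke and every A549 library labelled as control, 6 of the 18 libraries of the series, with 3 in each group. The series exposed A549 cells and the bronchial line BEAS-2B to complete wood smoke, to filtered wood smoke or to clean air, and its title asks about the part of wood smoke that is not particulate. The cells of both groups are labelled wild type. In both, 400000 A549 cells were plated on porous inserts of 24 mm 24 h ahead, then kept for 4 h at an air-liquid interface under the gas, where the apical side of the cells meets the aerosol and the basolateral side meets RPMI medium with HEPES. The flow was 100 mL/min at 85% relative humidity in both groups, and the groups differed in the gas they received, filtered wood smoke or clean air. RNA was taken up in TRIzol, and poly(A) mRNA libraries were made with a TruSeq kit. Whether the 3 samples of a group were grown and exposed apart is not stated, so each p-value reflects only how much these samples varied, which may be technical.

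Airway cells that meet reactive gases use several layers of response. Immediate early genes are switched on from existing signalling proteins without new protein synthesis, and they encode short-lived transcription factors such as the FOS, JUN and EGR families. Damaged proteins free the heat shock factor HSF1 to bind heat shock elements and switch on chaperone genes, while electrophiles such as aldehydes release the transcription factor NRF2 from its inhibitor KEAP1, and NRF2 then drives glutathione and thioredoxin genes. A549 cells carry a KEAP1 defect and hold NRF2 target genes at a high level without any exposure.

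The libraries held 14960415 to 20154190 counts assigned to genes. Cytosolic ribosomal protein genes took 4.66% ± 0.080 of gene counts with clean air and 8.37% ± 1.98 with filtered smoke (mean ± SD, n = 3 each), reads mapping to several places took 9.94% ± 0.288 and 11.4% ± 0.951, and unique reads outside genes took 7.17% ± 0.590 and 3.50% ± 1.38. None of these shares overlapped between the groups (exact permutation test, 2-sided, p = 0.1 each, the smallest that 3 against 3 allows, and adjusted p = 0.333 over 10 library measures). Filtered 3 stood apart from filtered 1 and filtered 2. It was the library nearest to the clean-air mean for 82.5% of the genes called higher and 80.8% of those called lower. Results that rest on it are given below with and without it. The label was checked against marker genes of the line. Epithelial keratins and enzymes typical of A549 were abundant, with ALDH1A1 at 7705 ± 801 CPM (gene counts scaled to library depth) and AKR1B10 at 1602 ± 339 CPM with clean air. Other epithelial markers were lower with clean air, with CDH1 at 66.5 ± 20.7 CPM, MUC1 at 6.41 ± 2.61 CPM and EPCAM at 5.87 ± 0.814 CPM. The surfactant genes SFTPA1, SFTPA2 and SFTPB, the lung factor NKX2-1 and the alveolar transporter SLC34A2 had 0 counts in all 6 libraries, and SFTPC had 1 to 3 counts, so defining markers of alveolar type II cells were at or near 0. Of 16 markers of other cell types 6 passed the count minimum. The summed level of all 16 was 178 to 282 CPM with clean air and 109 to 186 CPM with filtered smoke. The club-cell genes SCGB1A1 and SCGB3A2 had 0 counts in every library, and the part of other cells in the results was not tested.

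Filtered smoke changed 7112 of 15244 genes tested (adjusted p under 0.05 in edgeR's quasi-likelihood test), which is 46.7%, with 3524 higher (23.1%) and 3588 lower (23.5%). At least 2-fold changes made up 21.1% of tested genes, and the CPM ranges of the groups did not overlap for 57.5%, with filtered smoke above for 27.6% and below for 29.9%. These shares are the background against which each gene group below is read. The rises were fewer but reached further than the falls at the top end. At least 2-fold changes were 1383 higher (9.07%) and 1832 lower (12%), whereas at least 8-fold changes were 51 higher and 13 lower. In bulk RNA, fewer cells of a kind and less RNA per cell cannot be told apart. With library size as the only scaling, 2596 were higher and 4253 lower, so that 37.9% of called genes were higher in place of 49.6%, and the median over all genes was -0.15 in place of 0.01 on the log2 scale. Without filtered 1 the counts were 1920 higher and 2329 lower, without filtered 2 they were 1845 and 2161, and without clean air 1, 2 or 3 the higher genes numbered 2246, 2073 and 2185. At least 2-fold changes numbered 3215 in all, 4884 without filtered 3, 1903 with offsets for GC content and exonic length, and 2062 with these offsets and the sample number as a block.

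Among the largest rises in log2 fold change were EGR3 (6.65), EGR2 (6.37) and HSPA6 (6.31). EGR2, a zinc-finger transcription factor of the early growth response family (chromosome 10, 62811996 to 62919900), measured 0.607, 0.318 and 0.492 CPM with clean air and 24.8, 48.1 and 43.5 CPM with filtered smoke. Its log2 fold change was 6.37 ± 0.38 (SE; adjusted p = 0.000143). The related EGR3 measured 0.243, 0.0909 and 0.369 CPM with clean air and 12.1, 24.7 and 32.0 CPM with filtered smoke. The heat shock gene HSPA6 measured 5.04, 1.95 and 6.52 CPM with clean air and 174, 395 and 486 CPM with filtered smoke. In all 3 genes every filtered library lay above every clean-air library by more than 10 times, and filtered 1 was the lowest of the filtered libraries, in contrast to the bulk of called genes, where filtered 3 moved least. Next in size were RGS16 (5.23), which shortens G protein signals, ARC (4.68), an activity-regulated gene best known in neurons, NRARP (4.57), a target and brake of Notch signalling, FOSB (4.31), HES1 (4.00), RASD1 (3.95), a small GTPase, FOS (3.85), SNAI1 (3.59), a repressor of epithelial genes, and ANKRD37 (3.52), a hypoxia-inducible gene. The lowest fold change was in ZFHX3, a zinc-finger homeobox factor (chromosome 16, 72782885 to 73891871). ZFHX3 measured 104, 86.1 and 94.9 CPM with clean air and 8.77, 8.64 and 19.4 CPM with filtered smoke, a fall by 2.95 on the log2 scale (± 0.40 SE, adjusted p = 0.00121). FBXW10B (-2.93), FGD4 (-2.67), the Slit-Robo GTPase activator SRGAP1 (-2.64), ZNF469 (-2.63), SASH1 (-2.62), the repressor ZBTB20 (-2.62), MEGF9 (-2.61), the adhesion protein FLRT2 (-2.58), the splicing factor RBM20 (-2.57), COL20A1 (-2.54) and CDK6 (-2.51), a kinase of the G1 phase, followed. Among these 12 falling genes the filtered 3 level was the highest of the 3 filtered libraries in every case. That no filtered library reached the clean-air range was a condition of the choice, for the rising genes too. All 24 genes passed under each of the 19 alternative settings. HSPA6 and FBXW10B have close copies in the genome, so reads shared with them were not counted and their levels are uncertain.

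**Figure D1:**
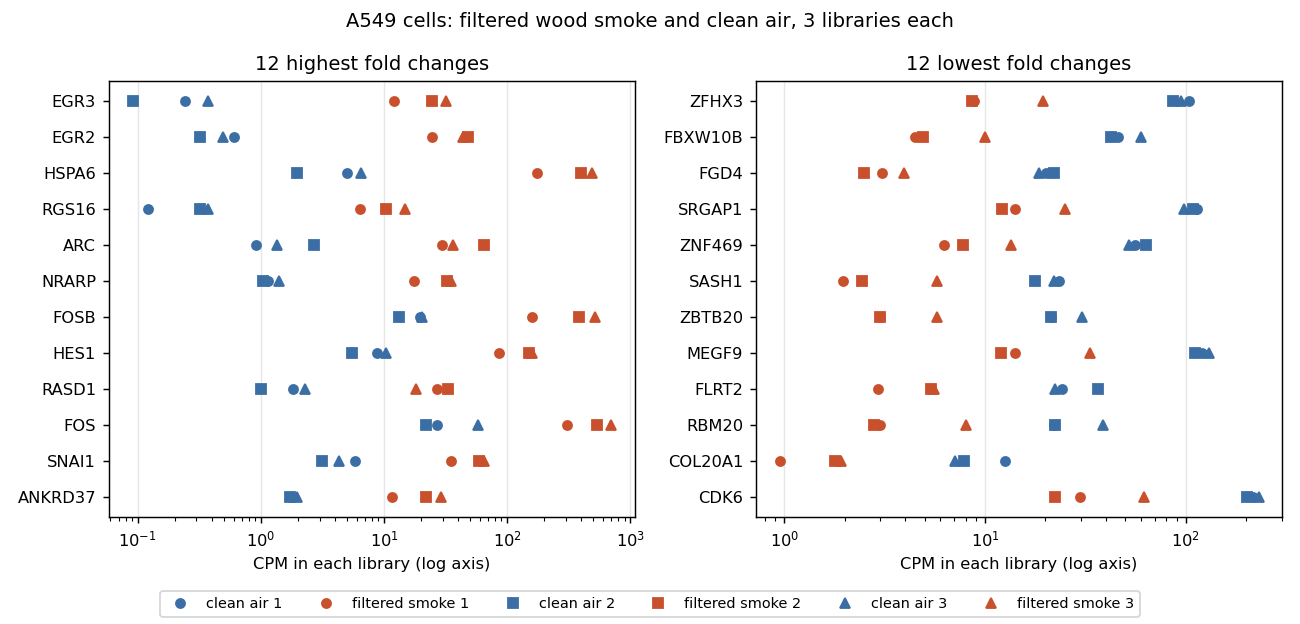
CPM in each of the 6 A549 libraries (log axis) for the 12 genes with the highest and the 12 with the lowest log2 fold change, blue for clean air and orange for filtered smoke, with 1 marker shape per sample number. The colours do not overlap in any of the 24 rows, which the choice of genes required. The filtered 3 triangles lie nearest to the blue points for the falling genes but not for EGR3, HSPA6 or FOS.

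Immediate early genes rose as a group. Of 45 tested members 32 rose and 1 fell (FOSL2, -0.78), and the list median was 1.48 against 0.01 over all genes tested. FOS, which pairs with JUN proteins to form the AP-1 factor, measured 27.1, 21.8 and 58.4 CPM with clean air and 306, 539 and 703 CPM with filtered smoke. JUN measured 64.1, 72.7 and 31.4 CPM with clean air and 281, 480 and 448 CPM with filtered smoke (2.84 ± 0.33, adjusted p = 0.000727). Neither gene overlapped between the groups. EGR1 rose by 3.00, ATF3, a stress-induced repressor, by 2.50, and KLF4, a factor of epithelial differentiation, by 2.04. Inhibitors of bHLH transcription factors rose with them, ID2 by 2.99 and ID1 by 1.47, and so did HES1, a bHLH repressor. HES1 measured 8.74, 5.55 and 10.5 CPM with clean air and 85.1, 149 and 159 CPM with filtered smoke, so its lowest filtered value was above its highest clean-air value. EGR4 had 0 counts in the 3 clean-air libraries and 42, 122 and 33 counts with filtered smoke, and was at least 72.0-fold higher against a floor of 3 counts over the clean-air group (adjusted p = 0.00200). With EGR4 at that bound the list median stayed at 1.48. MYC, another early gene, stood at 0.08 and SRF, the factor that binds CArG boxes, at 0.06, and neither passed. The list median was 1.29 in filtered 1, 1.75 in filtered 2 and 1.69 in filtered 3, so this group was not weakest in filtered 3. The count of higher members ran from 27 to 36 over all settings, and that of lower members from 1 to 4, with 2 without filtered 3. Immediate early genes are short, with a median span of 6.00 kb, and short genes moved upward in general, as shown further on. Their list median was 0.87 above that of protein-coding genes of like span (the same of 5 bins).

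Promoters are shown for 5 genes, picked as examples of 5 well-known control elements, each found in the 250 bases before the gene start (RefSeq sequences, GRCh38.p14, 5′ to 3′ on the gene's strand, matches in capitals). EGR1 stands for the immediate early genes, and the capitals mark CArG boxes, which bind SRF. DUSP1 has the cAMP response element TGACGTCA. HES1 has the RBPJ site GTGGGAA, bound by the nuclear partner of Notch. HSPA6 has a heat shock element of 3 units (GAANNTTCNNGAA or TTCNNGAANNTTC), and GCLM, a gene that fell, has the core of the antioxidant response element (TGACNNNGC), bound by NRF2.
EGR1: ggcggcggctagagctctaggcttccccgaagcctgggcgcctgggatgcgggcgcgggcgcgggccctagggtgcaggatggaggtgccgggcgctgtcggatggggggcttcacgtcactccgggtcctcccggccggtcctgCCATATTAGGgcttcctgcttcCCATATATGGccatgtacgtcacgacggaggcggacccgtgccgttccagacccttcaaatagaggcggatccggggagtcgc
DUSP1: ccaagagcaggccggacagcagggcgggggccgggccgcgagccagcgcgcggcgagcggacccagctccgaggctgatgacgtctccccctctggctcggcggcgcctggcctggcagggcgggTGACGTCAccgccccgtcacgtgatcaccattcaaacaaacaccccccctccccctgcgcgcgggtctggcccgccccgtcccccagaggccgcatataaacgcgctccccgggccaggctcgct
HES1: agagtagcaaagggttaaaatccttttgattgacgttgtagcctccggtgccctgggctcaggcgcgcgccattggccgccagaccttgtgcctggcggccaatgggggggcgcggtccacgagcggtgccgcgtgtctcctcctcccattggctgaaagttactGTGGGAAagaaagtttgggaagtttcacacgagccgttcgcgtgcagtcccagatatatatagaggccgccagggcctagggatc
HSPA6: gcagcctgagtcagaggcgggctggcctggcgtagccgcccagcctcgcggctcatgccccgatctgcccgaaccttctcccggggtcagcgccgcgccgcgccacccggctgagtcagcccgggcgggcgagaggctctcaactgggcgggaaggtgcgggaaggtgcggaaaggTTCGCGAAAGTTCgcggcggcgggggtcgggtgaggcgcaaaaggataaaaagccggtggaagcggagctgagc
GCLM: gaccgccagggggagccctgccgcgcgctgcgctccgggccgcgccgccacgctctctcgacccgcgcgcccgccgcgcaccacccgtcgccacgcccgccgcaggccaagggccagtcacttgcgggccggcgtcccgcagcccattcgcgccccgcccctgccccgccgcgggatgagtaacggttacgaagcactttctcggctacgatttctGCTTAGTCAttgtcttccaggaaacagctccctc
These stretches lie at chr5:138465229-138465478 (+), chr5:172771196-172771445 (-), chr3:194135898-194136147 (+), chr1:161524290-161524539 (+) and chr1:93909431-93909680 (-). Both strands were searched over 300 bases, 250 before to 50 after the start. Of 27305 promoters in the table, 1.29% held a CArG box, 1.98% the cAMP response element, 6.28% the RBPJ site, 0.487% the heat shock element and 13.6% the antioxidant core. Promoters were in the table for 34 of the 45 tested immediate early genes, of which EGR1 and SRF held CArG boxes and JUND and MAFF the cAMP response element. A match describes the letters only, since SRF held 2 CArG boxes and did not pass, while MAFF rose by 2.23.

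Feedback regulators of the MAP kinase and G protein pathways, which act on the signals that switch early genes on, rose in 14 of 33 cases, while 6 fell, with a median of 0.42. DUSP1, a phosphatase that removes phosphate from p38 and JNK, measured 177, 196 and 182 CPM with clean air and 328, 465 and 446 CPM with filtered smoke (1.16 ± 0.21, adjusted p = 0.00332). DUSP6, which acts on ERK, rose by 1.62. The growth arrest genes GADD45A and GADD45B rose by 1.70 and 2.78, PHLDA2 by 3.52 and RGS2 by 2.12. In the other direction SPRED1 and SPRED2, which hold back RAS and RAF, fell by 1.09 and 1.28, and SPRY1 fell by 0.93. The DUSP and SPRY families each divided. DUSP4 fell by 0.70 (adjusted p = 0.00845) and DUSP16 by 1.40 (adjusted p = 0.0426), while SPRY4 rose by 1.09 (adjusted p = 0.0130).

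In the EGF receptor family 2 ligands rose, and the receptor gene EGFR and other members fell. HBEGF, a membrane-bound ligand that is shed on stress, measured 4.43, 5.27 and 5.48 CPM with clean air and 26.1, 36.8 and 82.7 CPM with filtered smoke. Its log2 fold change was 3.26 ± 0.50 (adjusted p = 0.00180), and filtered 3 was the highest library. AREG, a second ligand of the receptor, measured 33.2, 30.4 and 29.5 CPM with clean air and 77.1, 81.4 and 53.7 CPM with filtered smoke. Both ligands lay above all controls in every filtered library. The receptor EGFR itself measured 383, 376 and 312 CPM with clean air and 97.2, 105 and 175 CPM with filtered smoke, and lay below every control (SE of the log2 fold change 0.26, adjusted p = 0.00273). CBL, which marks the activated receptor for degradation, fell by 1.57, and the ligand TGFA by 0.63. Of 16 tested members 2 rose and 6 fell, or 3 fell with the offsets for GC content and exonic length.

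Among cytosolic chaperones and HSF1 targets 15 of 31 tested members rose and 2 fell. Their median was 0.24, so HSPA6 was far from the other tested members. The HSP70 genes HSPA1A, HSPA1B and HSPA1L were under the count minimum and not tested, with at most 6, 1 and 5 counts in a library. HSPA1A and HSPA1B are close copies of each other, so reads shared by them were not counted. Their low counts therefore do not show whether these genes were silent or changed. UBB, a polyubiquitin gene, rose by 0.92. The co-chaperone FKBP4 rose by 1.08. DNAJB1, the classic partner of HSP70, rose by 1.10, with an adjusted p of 0.00997 that became 0.0640 with sample numbers 1 and 2 only. The small heat shock protein HSPB1 rose by 1.16, a call lost with the offsets (highest adjusted p = 0.115), and CRYAB rose by 2.32, a call lost without clean air 1 or clean air 2 (highest adjusted p = 0.0607). The constitutive chaperone HSPA8 stood at 0.07, HSP90AA1 at -0.17 and HSPH1 at -0.23, and none of them passed. DNAJB6 and HSPA4L fell, by 0.41 and 1.11, and the count of falling members was 1 to 5 over all settings, with 4 without filtered 3 and 1 without filtered 1, filtered 2, clean air 1 or clean air 3. The heat shock element seen in HSPA6 was found in 6 of 27 promoters of the list, and of these HSPA6 and SERPINH1 rose, DNAJB6 fell, and CHORDC1, DNAJA1 and HSPA8 did not pass.

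NRF2 targets moved in both directions, as did tested genes in general. Of 36 tested members 12 rose, 9 fell and 15 did not pass, beside 23.1% higher and 23.5% lower over all tested genes. The list median was 0.09, and it was -0.08 with library size alone and -0.01 without filtered 1. SLC7A11, the cystine importer, measured 613, 636 and 685 CPM with clean air and 93.03, 95.5 and 206 CPM with filtered smoke (-2.29 ± 0.34, adjusted p = 0.00158). HMOX1, haem oxygenase 1 (chromosome 22, 35380361 to 35394214), measured 1424, 1207 and 1511 CPM with clean air and 309, 304 and 366 CPM with filtered smoke (-2.08 ± 0.24, adjusted p = 0.000735). The 3 filtered libraries of HMOX1 differed little from each other, with filtered 3 close to the other pair. GCLC and GCLM, the subunits of the rate-limiting enzyme of glutathione synthesis, fell by 1.40 and 1.22, TXNRD1, thioredoxin reductase, fell by 1.17 to 1003 ± 177 CPM, the glutathione conjugate exporter ABCC1 fell by 1.23, and NFE2L2, which encodes NRF2, fell by 0.68. The other falling members were the exporter ABCC2 (-0.99) and UGDH (-1.03), which makes the substrate of glucuronidation. The count of falling members was 9 to 13 over all settings. GSTM3, a glutathione transferase, rose by 1.23 and BLVRB, a biliverdin reductase, rose by 1.16, under every setting. TKT and TALDO1 of the pentose phosphate pathway rose by 0.91 and 0.68. The count of rising members was 4 to 6 without any 1 library other than filtered 3, 3 with all 18 libraries and 7 with the offsets. NQO1, a quinone reductase and standard NRF2 marker, measured 1922, 1695 and 1742 CPM with clean air and 2639, 2407 and 1724 CPM with filtered smoke. Its groups overlapped and it did not pass (0.34 ± 0.20, adjusted p = 0.178). The median span of the list was 28.8 kb, against 33.7 kb over all tested protein-coding genes.

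**Figure D2:**
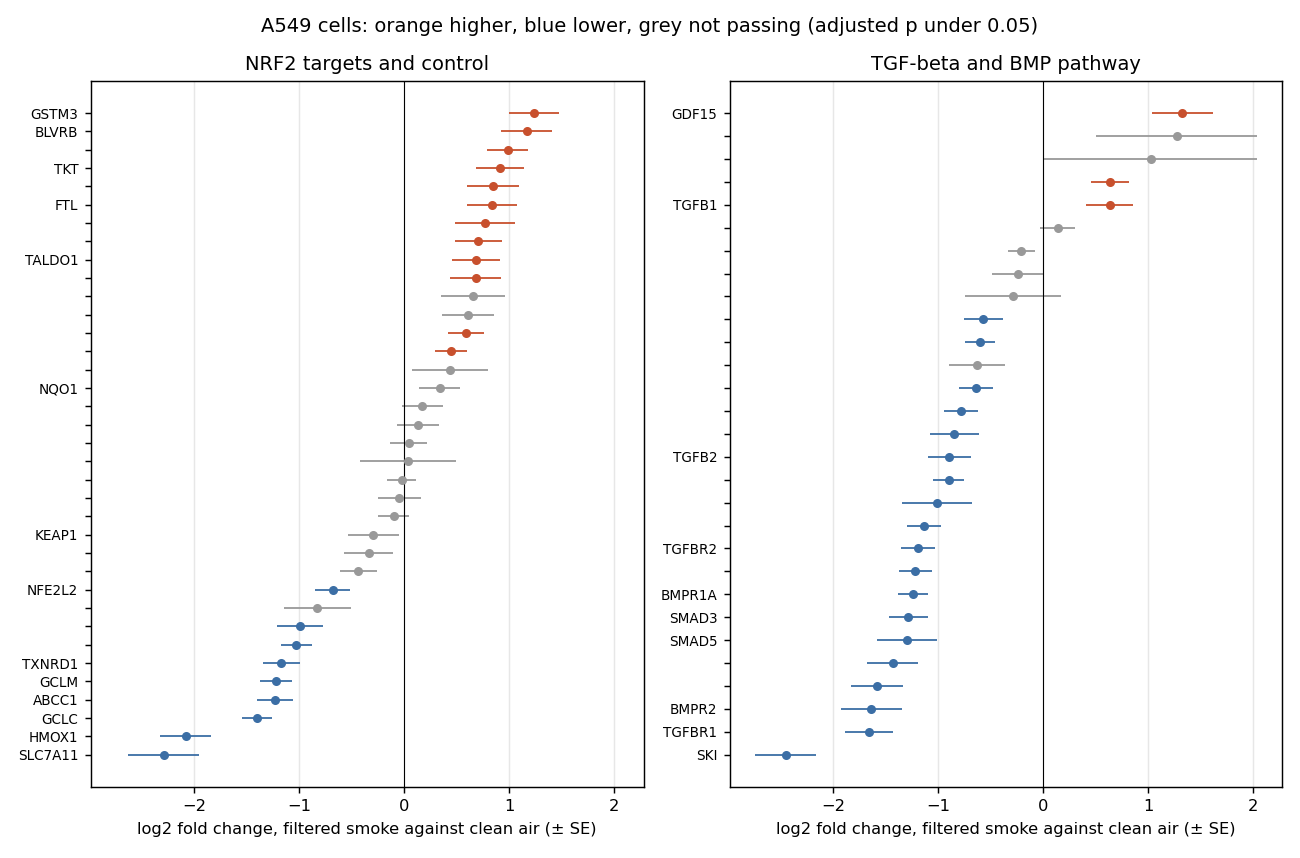
Log2 fold change of filtered smoke against clean air (± SE, n = 3 libraries a group) for each tested NRF2 target and each tested gene of the TGF-beta and BMP pathway, orange higher, blue lower, grey not passing, with gene symbols for those described in the text. On the left the points run from -2.29 (SLC7A11) to 1.23 (GSTM3) with 12 orange and 9 blue, and on the right 19 of 29 are blue.

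Enzymes of aldehyde and carbonyl metabolism, which reduce or oxidise the reactive carbonyls that smoke also carries, rose in 20 of 41 cases, against 3 that fell, with a median of 0.52. DCXR, a carbonyl reductase, measured 24.1, 25.5 and 19.1 CPM with clean air and 66.8, 77.7 and 35.2 CPM with filtered smoke (1.39 ± 0.32, adjusted p = 0.00776). HAGH, of the glyoxalase system, measured 25.5, 23.9 and 22.0 CPM with clean air and 64.5, 64.6 and 42.4 CPM with filtered smoke. In both genes filtered 3 was the nearest to the controls without reaching them. AKR1A1 rose by 0.85, AKR1B1 by 0.76 and PARK7, a protein of the response to glycation and oxidation, by 0.80. Several abundant members did not pass. These were ALDH1A1 (0.25, adjusted p = 0.212), AKR1B10 (0.43, adjusted p = 0.332) and AKR1C1 (0.33, adjusted p = 0.250). ALDH3A1 rose from 2317 ± 223 to 4314 ± 1448 CPM, a call lost with the offsets, with all 18 libraries and without any 1 library other than filtered 3 (highest adjusted p = 0.110). The rising members numbered 9 to 12 without any 1 library other than filtered 3 and 13 with library size alone or all 18 libraries. The falling members numbered 1 without filtered 2 or clean air 3, and 6 without filtered 3 or with the sample number as a block. The list for AhR, the receptor for polycyclic aromatic hydrocarbons, had 1 of 9 higher and 3 lower (median -0.72). It also holds AHR itself and ARNT. Lower were AHR (-0.67, groups overlapping), AHRR (-1.54, 4 to 26 counts per library) and SLC7A5 (-0.72). The target CYP1A1 did not pass (-1.32, adjusted p = 0.253). TIPARP did not pass (-0.83, adjusted p = 0.0547), but did with the sample number as block (adjusted p = 0.00554). CYP1B1 measured 243, 87.6 and 241 CPM with clean air and 67.2, 75.1 and 116 CPM with filtered smoke, with overlapping groups (-1.15 ± 0.48, adjusted p = 0.0710, or 0.00384 with the sample number as block). Lower AhR members numbered 0 to 6 over all settings, with 1 without filtered 1 or clean air 1, 0 without filtered 2 or clean air 3, and 5 without filtered 3. The member that rose, ALDH3A1, lost its call as given above, and 2 rose without filtered 3.

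Targets of p53, the damage-activated tumour suppressor, fell in 12 of 29 cases, against 4 that rose, with a median of -0.18. MDM2, which targets p53 for degradation, measured 422, 461 and 434 CPM with clean air and 43.6, 76.5 and 123.17 CPM with filtered smoke (-2.44 ± 0.36, adjusted p = 0.00153). ZMAT3, an RNA-binding regulator, fell by 2.10, TIGAR, which restrains glycolysis, by 1.79, and the phosphatase PPM1D by 1.07. CDKN1A, the cell cycle inhibitor p21, measured 494, 604 and 564 CPM with clean air and 368, 662 and 434 CPM with filtered smoke, overlapped and did not pass (adjusted p = 0.583). Those that rose were SERTAD1 (2.80), PMAIP1 (2.33), GDF15 (1.32) and BTG2 (1.01). PMAIP1, which encodes the pro-apoptotic protein NOXA, measured 37.1, 46.2 and 41.3 CPM with clean air and 150, 209 and 268 CPM with filtered smoke. The falling count was 7 without filtered 1, filtered 2 or clean air 2, and the rising count was 9 with the block or without filtered 3. In the BCL2 family 6 of 18 rose and 3 fell, beside 23.1% and 23.5% of all tested genes. BAD rose by 1.84 and BCL2L12 by 1.26, while BMF, a sensor of detachment and cytoskeletal damage, fell by 2.08 from 17.8 ± 3.16 to 4.17 ± 1.22 CPM. The rising count was 3 without filtered 1 or filtered 2, and the falling count 5 with the offsets.

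Genes of the integrated stress response and of the endoplasmic reticulum moved in both directions. Of 33 tested members 5 were higher and 9 lower (median -0.17), beside 23.1% and 23.5% of all tested genes. The higher ones were PPP1R15A, DDIT3, ATF4, ATF5 and SHMT2. PPP1R15A, the phosphatase subunit that reverses eIF2 alpha phosphorylation, measured 154, 171 and 118 CPM with clean air and 660, 1101 and 1030 CPM with filtered smoke (2.66 ± 0.27, adjusted p = 0.000570). DDIT3, which encodes CHOP, measured 16.9, 22.7 and 13.3 CPM with clean air and 69.8, 91.4 and 55.1 CPM with filtered smoke. No clean-air library of either gene came near the filtered range. The transcription factors ATF4 and ATF5 rose by 0.96 and 0.92. SHMT2, a mitochondrial enzyme of serine metabolism, rose by 0.60, a call lost without any 1 library other than filtered 3, with the offsets, with library size alone, with voom and with all 18 libraries (highest adjusted p = 0.140). ASNS and TRIB3, enzymatic and regulatory targets of ATF4, stood at -0.32 and 0.18 and did not pass. ASNS was low in both groups, at a mean of 1.87 CPM with clean air and 1.48 CPM with filtered smoke. CREB3L2, a membrane-bound transcription factor, fell by 1.87, DNAJC3, an inhibitor of the eIF2 alpha kinases, by 1.70, the kinase EIF2AK3 by 1.34 and SEL1L, of protein retrotranslocation, by 1.36. The chaperone HSPA5 fell by 0.66, a call lost without filtered 1, filtered 2, clean air 1 or clean air 3 (highest adjusted p = 0.101). Higher members numbered 8 with the block and 9 without filtered 3, and lower members 15 with block and offsets together and 5 without filtered 1, filtered 2 or clean air 3. Of 20 aminoacyl-tRNA synthetases 5 rose and 1 fell, beside the same 23.1% and 23.5% of all tested genes. KARS1 (0.76) and QARS1 (0.78) were higher in every setting. Rising synthetases numbered 8 with the offsets or without filtered 3 and 2 to 3 without any other 1 library. No synthetase fell without any 1 library other than filtered 3.

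Cytokines and chemokines rose in 10 of 17 tested cases, 3 fell, and 12 members were under the count minimum. CXCL8, the neutrophil attractant interleukin 8, measured 12.01, 13.3 and 19.2 CPM with clean air and 54.1, 57.3 and 93.7 CPM with filtered smoke (2.21 ± 0.43, adjusted p = 0.00419). TNFSF9, a T-cell costimulatory ligand, measured 16.8, 18.8 and 13.3 CPM with clean air and 44.0, 61.1 and 42.1 CPM with filtered smoke. Both were without overlap. IL11 rose by 1.04 and CCL26 by 1.09. IL6 measured 0.849, 0.727 and 1.41 CPM with clean air and 2.704, 2.51 and 1.91 CPM with filtered smoke, without overlap but not passing (1.26 ± 0.49, adjusted p = 0.0549). IL6 passed with the block (adjusted p = 0.0145) and without filtered 3 (adjusted p = 0.0375). The macrophage growth factor CSF1 fell by 1.16 and TNFSF15 by 1.62. Rising members numbered 4 with all 18 libraries, 5 with library size alone or without clean air 1, and 6 without filtered 1, filtered 2 or clean air 2. Subunits and inhibitors of NF-kB, a main driver of these genes, had 7 of 21 higher and 3 lower, beside 23.1% and 23.5% of all tested genes. RELB rose by 1.63 and the inhibitor NFKBIB by 1.12, while NFKB1 fell by 1.10. The fast NF-kB targets NFKBIA (-0.02) and TNFAIP3 (-0.41) did not pass, though TNFAIP3 passed with the block (-0.64, adjusted p = 0.0405). Higher members of that list numbered 2 with all 18 libraries, 3 without filtered 2 or clean air 3, and 4 with library size alone, with the offsets, or without filtered 1 or clean air 1, and lower members numbered 7 with the block and 1 without filtered 1, filtered 2 or clean air 2. The median of -0.11 turned to 0.05 without filtered 1, and to 0.01 without filtered 2 or clean air 3.

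Genes of TGF-beta and BMP signalling fell. Of 29 tested members 19 fell and 3 rose, with a median of -0.85, and the falling count was 16 to 20 over all settings. The falls reached receptors, signal carriers and brakes. TGFBR1, the signalling receptor, measured 167, 185 and 172 CPM with clean air and 46.3, 44.0 and 75.7 CPM with filtered smoke (-1.66 ± 0.23, adjusted p = 0.00128). TGFBR2 fell by 1.19, BMPR2 by 1.64 and BMPR1A by 1.24, and among the carriers SMAD3 fell by 1.28 and SMAD5 by 1.30. SKI, which represses SMAD target genes, measured 56.5, 59.8 and 50.9 CPM with clean air and 8.33, 8.87 and 13.3 CPM with filtered smoke. SKI was the lowest member of the list. The ligand gene TGFB1 rose by 0.63, TGFB2 fell by 0.90, and the distant family member GDF15 rose. Rising members numbered 1 without clean air 1 or clean air 2. Of 21 YAP and TEAD genes 12 fell and 4 rose, with a median of -0.90. TEAD1, the DNA-binding partner, measured 361, 387 and 384 CPM with clean air and 80.2, 77.6 and 171 CPM with filtered smoke, YAP1 fell by 0.90, WWTR1, which encodes TAZ, by 1.05, and the kinase LATS2 by 1.47. CCN1 and CCN2, matrix proteins and YAP targets, rose by 1.42 and 2.05, the target ANKRD1 by 1.86 and TEAD2 by 0.94. The CCN2 call was lost with numbers 1 and 2 only (adjusted p = 0.0672), where 2 members of the list were higher. Both lists hold long genes, with median spans of 56.7 and 60.1 kb, and against protein-coding genes of like span their medians were 0.57 and 0.46 lower. With offsets they were -0.64 and -0.55.

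Of 32 tested cell junction and matrix receptor genes 9 fell and 2 rose, beside 23.5% lower and 23.1% higher over all tested genes. TJP1, which encodes the tight-junction scaffold ZO-1, measured 91.3, 90.0 and 87.4 CPM with clean air and 24.6, 23.0 and 52.5 CPM with filtered smoke (-1.42 ± 0.32, adjusted p = 0.00715). CTNND1, p120 catenin, fell by 0.98. ITGA2, a collagen receptor subunit, fell by 2.17, a call lost without filtered 2 (adjusted p = 0.0584). The adherens junction gene CDH1 stood at -0.69 and did not pass (adjusted p = 0.0784), but did with the block (adjusted p = 0.000648). The list's falling count was 14 without filtered 3, and 5 without filtered 2 or with all 18 libraries, and its median of -0.18 was 0.04 with the offsets. The rising count was 0 without clean air 2, 1 without filtered 1, filtered 2, clean air 1 or clean air 3, and 5 without filtered 3.

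Cell cycle genes moved in both directions, and their counts stand beside 23.1% higher and 23.5% lower over all tested genes. Among cyclins, CDK inhibitors and E2F factors of G1, 6 of 24 rose and 7 fell (median 0.03, which turned to -0.12 with library size alone and -0.04 without filtered 3). CDK6 (chromosome 7, 92604921 to 92836594) measured 216, 203 and 230 CPM with clean air and 29.7, 22.4 and 61.6 CPM with filtered smoke (-2.51 ± 0.41, adjusted p = 0.00214). Cyclin D1, encoded by CCND1, fell by 0.73, the pocket protein RBL1 by 1.44 and E2F3 by 1.25. E2F1, an activator of S-phase genes, measured 27.4, 30.8 and 26.7 CPM with clean air and 95.9, 78.1 and 50.7 CPM with filtered smoke (1.40 ± 0.26, adjusted p = 0.00341), and CDK2 and CCNE1 rose by 1.04 and 0.84. Of 37 mitosis genes 4 rose, 8 fell and 25 did not pass. CENPF, a large kinetochore protein, fell by 1.52, the proliferation marker MKI67 by 1.45 and the spindle motor KIF11 by 0.94. The 4 that rose were PTTG1 (1.35), CDC20 (1.14), UBE2C (1.10) and AURKB (0.74). Cyclin B1 (CCNB1, 0.47), CDK1 (0.46) and PLK1 (0.54) did not pass, but did with the block (adjusted p = 0.0349, 0.0110 and 0.0262). The rising mitosis genes numbered 13 with the block or without filtered 3 and 0 without filtered 1, filtered 2, clean air 2 or clean air 3. The falling ones numbered 3 with all 18 libraries and 4 with the offsets.

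Most chromatin enzymes fell. Of 65 chromatin enzymes 45 fell and 5 rose, with a median of -0.999, and 32 to 53 fell over all settings. KAT6A, a histone acetyltransferase, measured 113, 105 and 111 CPM with clean air and 16.1, 19.7 and 41.5 CPM with filtered smoke. SETD1B, a histone H3K4 methyltransferase, fell by 2.04, its relative KMT2A by 1.90, the coactivators CREBBP and EP300 by 1.86 and 1.85, the remodelling subunit ARID1A by 1.97 and the demethylase TET3 by 1.88. In contrast the deacetylase genes HDAC3 and HDAC6 rose by 0.85 and 0.79, and EZH2 stood at -0.04 without passing. The rising count was 2 without filtered 2 or with all 18 libraries, 3 without filtered 1 or any 1 clean-air library or with library size alone, and 11 with block and offsets. The median span of the list was 100 kb, and its median was 0.60 below that of genes of like span. ZNF zinc-finger genes, mostly repressors of repeats, fell in 175 of 396 cases, with 18 higher (median -0.57), with 111 lower without filtered 1, 106 without filtered 2 and 115 without clean air 2. Their rising count was 8 without filtered 2 or clean air 1, 9 without clean air 3, 11 without filtered 1, 30 without filtered 3 and 29 with the block. In the transcription machinery 14 of 36 rose and 9 fell, beside 23.1% and 23.5% of all tested genes. The small RNA polymerase II subunits POLR2G (0.98), POLR2H (0.99) and POLR2K (0.87) and the pausing factor NELFE (1.24) rose, whereas the elongation kinase CDK12 fell by 1.18. POLR2A, the catalytic subunit, stood at -0.13 and did not pass. Rising members numbered 9 without filtered 1 or filtered 2, 8 without clean air 2 or clean air 3 and 6 with all 18 libraries, and falling members 5 without filtered 1 or filtered 2 or with all 18.

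Factors that handle mRNA after transcription also divided. Among genes of mRNA decay 14 of 27 fell and 4 rose (median -0.35). ZFP36, which carries AU-rich mRNAs of cytokines and early genes to decay, measured 28.6, 28.0 and 30.3 CPM with clean air and 111, 183 and 131 CPM with filtered smoke (2.29 ± 0.21, adjusted p = 0.000414). The deadenylase subunits CNOT6L and CNOT6 fell by 1.55 and 1.40, their scaffold CNOT1 by 1.06, and TOB1, which recruits the deadenylase, rose by 1.23. Falling members numbered 9 without filtered 1 or filtered 2 or with all 18 libraries, and rising members 11 with block and offsets. Among SR proteins and CLK kinases, which control splicing, 4 of 24 rose and 6 fell, beside 23.1% and 23.5% of all tested genes. SRSF7 rose by 1.15, SRSF5 by 1.12 and SRSF2 by 0.91, and the kinase DYRK1A fell from 59.9 ± 0.859 to 15.7 ± 5.67 CPM. The median of this list was -0.14 and turned to 0.38 with the offsets, where 11 rose. Falling members numbered 2 with all 18 libraries, 3 without filtered 2, and 10 with the block or without filtered 3. In the circadian clock 3 of 18 rose and 4 fell, beside 23.1% and 23.5% of all tested genes. The light- and stress-inducible PER1 rose by 1.72, CIART by 1.91 and NR1D1 by 1.27, while CLOCK and PER2 fell by 1.41 each. CIART was low, with 2 to 11 counts per library with clean air and 11 to 29 with filtered smoke. The rising count was 5 with the block or the offsets, the falling count 2 with the offsets, and the median of 0.15 turned to -0.03 without filtered 3 and to -0.01 with library size alone. Of 20 metallothioneins and zinc transporters 4 rose and 7 fell, beside the same 23.1% and 23.5%. MTF1, the zinc sensor that drives metallothioneins, fell by 1.46, the Golgi zinc importer SLC30A7 by 1.25, and MT2A stood at 0.28 without passing. The rising count was 1 without filtered 1 or filtered 2, 2 without clean air 1 or clean air 3, and 0 without clean air 2.

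Most nuclear genes of the ribosomes, the respiratory chain and the proteasome rose. Of 82 cytosolic ribosomal protein genes 75 rose and 1 fell (median 1.02), and over all settings 60 to 79 rose and 0 to 2 fell, with 2 without filtered 3 and 0 without filtered 2, clean air 1 or clean air 2. RPLP2, of the ribosomal stalk, measured 360, 337 and 341 CPM with clean air and 1149, 1026 and 476 CPM with filtered smoke, with filtered 3 closest to the controls. Many ribosomal protein genes have processed pseudogenes, so their levels are uncertain, and the multimapping share was also higher in the filtered libraries. Of 77 nuclear genes of the respiratory chain 69 rose and none fell (median 0.91), for example NDUFS7 of complex I (1.57) and SDHB of complex II (1.18). The count was 35 without filtered 1, 37 without filtered 2, 41 without clean air 2 and 43 without clean air 3. Of 13 mRNAs encoded by mitochondrial DNA 2 rose and none fell, beside 23.1% and 23.5% of all tested genes. With the block 5 were higher and 1 lower, and none were higher without clean air 2. Mitochondrial genes in all took 8.96% ± 0.723 of gene counts with clean air and 8.88% ± 3.17 with filtered smoke (exact permutation test, 2-sided, p = 0.9). Mitochondrial ribosomal proteins rose in 52 of 76 cases, for example MRPS12 by 1.40, and 2 fell, MRPS5 by 1.33 among them, or 1 without filtered 1, filtered 2 or clean air 3. That rising count was 13 to 19 without any 1 library other than filtered 3, 27 with the offsets and 29 with all 18 libraries. Proteasome subunits rose in 24 of 37 cases and 1 fell, a fall lost without filtered 1, filtered 2, clean air 1 or clean air 2. The immunoproteasome subunits PSMB9 and PSMB8 rose by 1.36 and 1.04, with 8, 10, 10 and 9 rising members without filtered 1, filtered 2, clean air 2 and clean air 3. Host genes of small nucleolar RNAs, whose spliced transcripts are decayed during translation, rose in 22 of 26 cases and none fell (median 1.07). SNHG1 measured 104, 109 and 84.8 CPM with clean air and 299, 370 and 309 CPM with filtered smoke, and SNHG12 rose by 1.92. The SNHG count was 18 to 22 over all settings, with SNHG14 lower with the block and without filtered 3. Of 24 tested replication-dependent histone genes 5 rose and none fell, beside 23.1% and 23.5% of all tested genes. Their rising members numbered 10 with the block, 8 without filtered 3 and 2 without filtered 1 or clean air 2. Most mRNAs of these genes lack a poly(A) tail, so their levels in poly(A) libraries are uncertain.

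**Figure D3:**
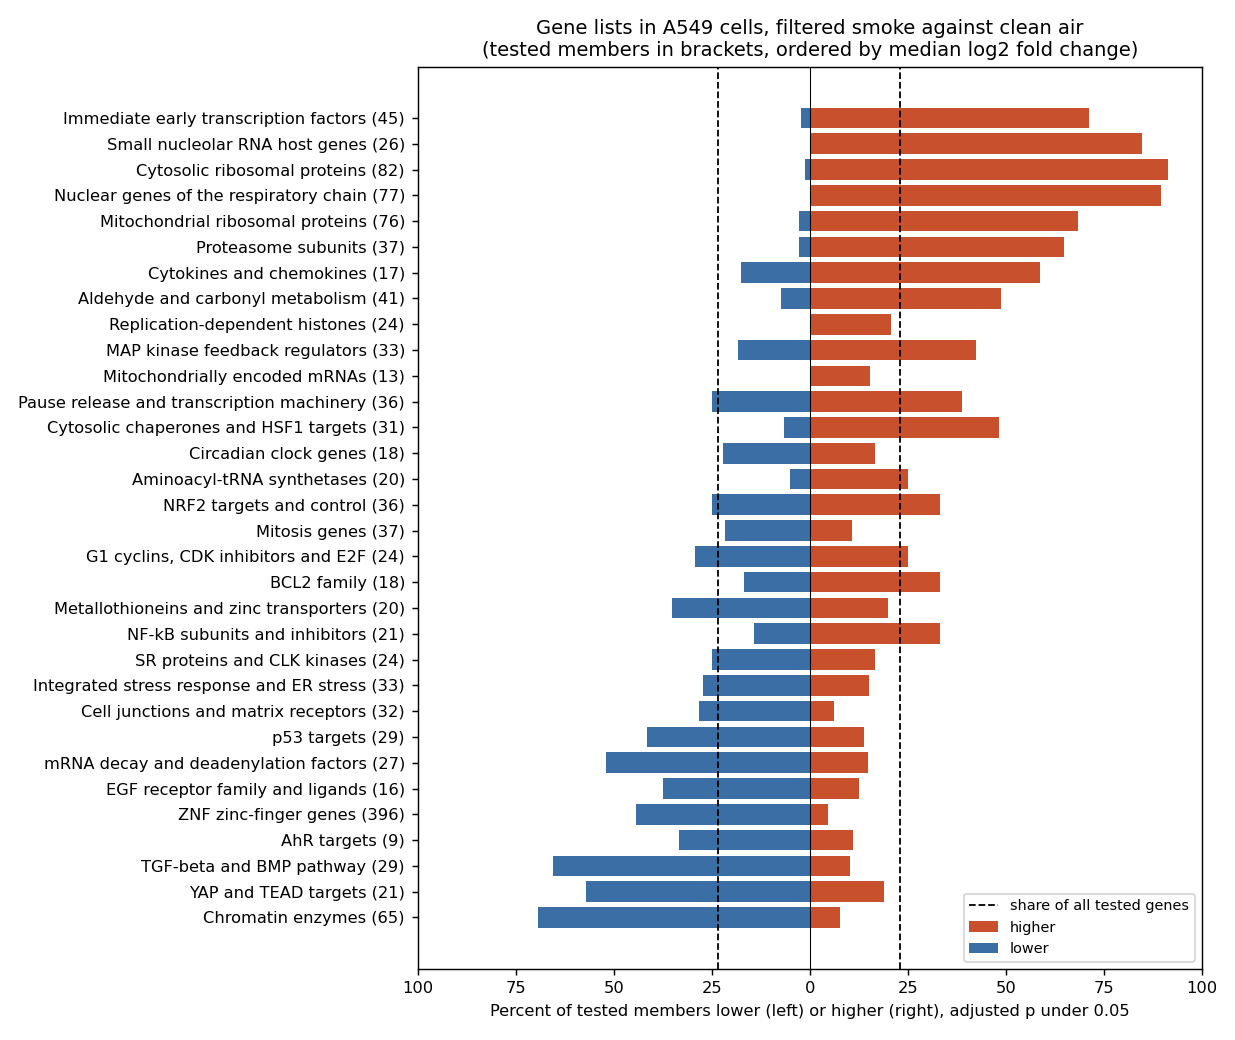
Percent of the tested members of each gene list that were lower (blue, to the left) or higher (orange, to the right) with filtered smoke, both axes from 0, with dashed lines at the 23.5% lower and 23.1% higher of all tested genes. Ribosomal protein and respiratory chain genes reach farther to the right than chromatin enzymes and TGF-beta genes reach to the left, and NRF2 targets extend to both sides.

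**Figure D4:**
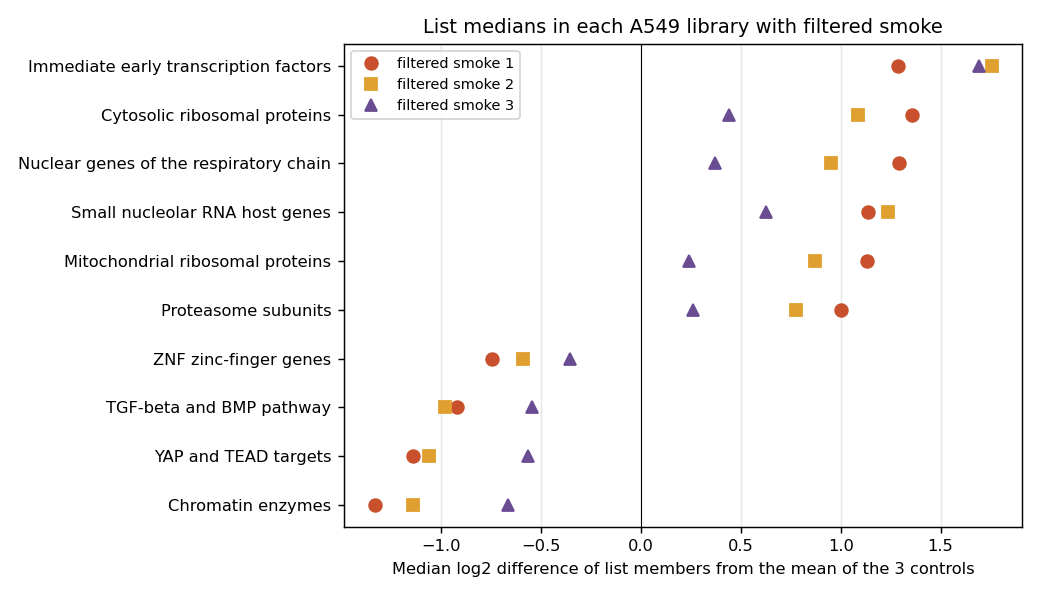
Median log2 difference of the members of 10 gene lists from the mean of the 3 clean-air libraries, 1 marker per filtered library. Filtered 3 is nearest to 0 in 9 of the lists, and for immediate early genes it stands at 1.69, beside 1.29 in filtered 1 and 1.75 in filtered 2.

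The direction of change followed the length of the gene. The 12757 tested protein-coding genes were cut into 5 bins by span on the genome. Among the 2552 genes with the shortest span, 51.2% rose and 6.07% fell, with a median of 0.65. Among the 2552 with the longest span 7.48% rose and 47.5% fell, with a median of -0.59. The medians of the shortest bin were 0.77, 0.76 and 0.30 in filtered 1, 2 and 3, those of the longest bin were -0.77, -0.74 and -0.32, and each clean-air library set against the other controls stayed between -0.05 and 0.08 in both bins. Exonic length moved with it. Genes short in both measures had a median of 0.67, genes long in both -0.72, genes of long span and short exons 0.33 and genes of short span and long exons 0.06, with each measure cut into 3 bins. With offsets for GC content and exonic length the medians of the shortest and longest bins shrank to 0.25 and -0.13. This trend ran alongside the gene groups above. Ribosomal protein genes had a median span of 5.70 kb and chromatin enzymes of 100 kb, and the part of gene length in each group's result was not tested.

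**Figure D5:**
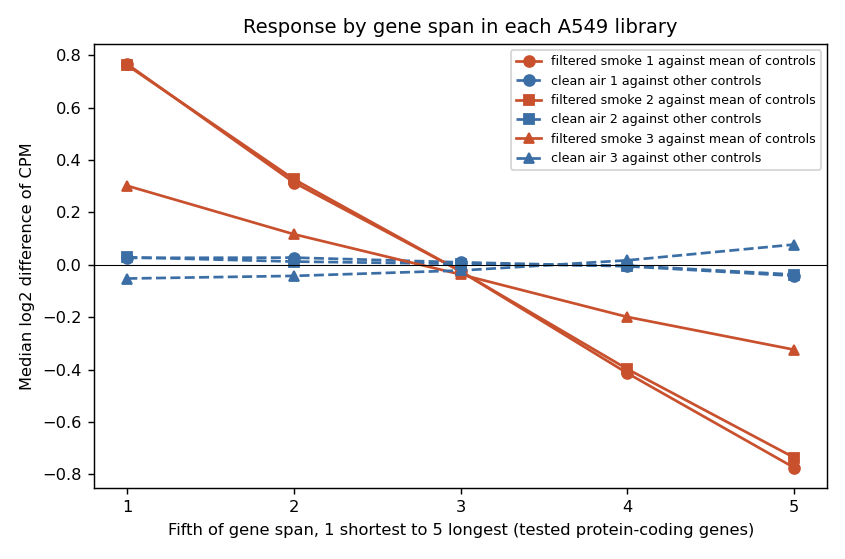
Median log2 difference of CPM by bin of gene span, from the shortest (1) to the longest (5), over tested protein-coding genes, 1 line per library. The filtered libraries fall from 0.77, 0.76 and 0.30 to -0.77, -0.74 and -0.32, and the clean-air libraries stay near 0.

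In absolute level the largest rises were in FTL, GAPDH, MT-ND2, KRT18, KRT81 and ALDH3A1. FTL, the light chain of the iron store ferritin, measured 6805, 5704 and 6154 CPM with clean air and 13416, 12236 and 7654 CPM with filtered smoke (0.84 ± 0.23, adjusted p = 0.0168). GAPDH, of glycolysis, measured 5351, 4724 and 4344 CPM with clean air and 11419, 10030 and 6341 CPM with filtered smoke. The groups did not overlap, which the choice of genes required, but in both genes filtered 3 was close to the controls. The FTL call was lost without filtered 1, filtered 2, clean air 2 or clean air 3, with all 18 libraries and with the offsets (highest adjusted p = 0.321). That of GAPDH was lost without filtered 1, filtered 2 or clean air 3 and with the offsets (highest adjusted p = 0.0576). KRT18 rose from 2514 ± 439 to 5121 ± 1471 CPM, a call lost without filtered 1, filtered 2, clean air 2 or clean air 3 and with all 18 libraries (highest adjusted p = 0.0576). The calls of MT-ND2, KRT81 and SLC7A5 were also lost under some settings, with highest adjusted p of 0.0877, 0.191 and 0.117. The largest absolute falls were in TXNRD1, HMOX1, AHNAK2, SLC7A5, ATP2A2 and FAT1. AHNAK2, a giant scaffold protein, measured 1152, 1188 and 1047 CPM with clean air and 208, 223 and 404 CPM with filtered smoke (-2.02 ± 0.32, adjusted p = 0.00193). ATP2A2, the calcium pump of the endoplasmic reticulum, fell from 1248 ± 174 to 554 ± 104 CPM.

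Of long noncoding RNAs, TBC1D22A-DT rose by 2.28 from 2.02 to 9.79 CPM and LINC02035 fell by 1.92 from 18.5 to 4.86 CPM. NEAT1, the scaffold of nuclear paraspeckles, measured 466, 743 and 767 CPM with clean air and 384, 382 and 537 CPM with filtered smoke and did not pass (-0.60 ± 0.27, adjusted p = 0.0906). It passed with the block (-0.60, adjusted p = 0.00549). With block and offsets together NEAT1 turned to 0.45 (adjusted p = 0.0250). Of marker genes of other cells FOXJ1, a factor of ciliated cells, measured 0.182, 0.682 and 0.492 CPM with clean air and 1.46, 3.35 and 2.87 CPM with filtered smoke, without overlap and low in both groups (2.45 ± 0.44, adjusted p = 0.00304). The fibroblast collagen gene COL1A1 fell from 35.1 ± 11.7 to 11.7 ± 3.82 CPM, a call lost with sample numbers 1 and 2 only (adjusted p = 0.0877). TP63, of basal cells, fell from 18.2 ± 2.83 to 8.21 ± 3.34 CPM, a call lost without clean air 3 (adjusted p = 0.0506). The median of the 6 tested markers of other cells was -0.75.

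Levels with complete smoke are set beside these values. Complete smoke shares the 3 clean-air libraries, so agreement between the smokes is not independent. In complete smoke EGR2 measured 24.6 ± 6.39 CPM, HSPA6 243 ± 52.4, HBEGF 44.4 ± 25.4 and HES1 97.8 ± 23.6 CPM, next to 38.8 ± 12.4, 352 ± 161, 48.5 ± 30.1 and 131 ± 40.3 CPM in filtered smoke. For the falling genes SLC7A11 measured 187 ± 67.9 CPM in complete and 132 ± 64.5 in filtered smoke, MDM2 118 ± 41.4 and 81.1 ± 40.0, CDK6 50.7 ± 24.2 and 37.9 ± 20.8, and HMOX1 378 ± 134 and 326 ± 34.3. The intervals of ± 1 SD overlapped for these 8 genes. They did not overlap for CYP1A1, CYP1B1 and BMF. CYP1A1, the main AhR-induced monooxygenase, measured 78.3 ± 53.7 CPM in complete and 2.94 ± 0.901 CPM in filtered smoke, next to 7.497 ± 9.62 CPM with clean air. Its log2 fold change against clean air was 3.40 ± 0.88 with complete smoke (adjusted p = 0.0192) and -1.32 ± 0.91 with filtered smoke (adjusted p = 0.253). CYP1B1 measured 676 ± 438 CPM in complete and 86.1 ± 26.3 CPM in filtered smoke, with 1.83 ± 0.48 (adjusted p = 0.0203) beside -1.15 ± 0.48 (adjusted p = 0.0710). BMF measured 15.2 ± 9.15 and 4.17 ± 1.22 CPM, with -0.22 ± 0.36 (adjusted p = 0.657) beside -2.08 ± 0.39 (adjusted p = 0.00379). The difference between the smokes was not tested for any of these genes, which were chosen after their values were seen.

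The filtered smoke response was also set against that of BEAS-2B cells for 35 genes. The difference between the lines, tested as an interaction over all 18 libraries, passed for 1 of them, KLF4, against 0.825% of 17703 genes in that fit, where 53.6% of genes passed for filtered smoke in BEAS-2B cells. KLF4 rose by 2.03 in A549 cells and 0.73 in BEAS-2B cells (difference -1.30, adjusted p = 0.0467). A549 cells were plated at a lower number per insert than BEAS-2B cells, so line and plated cell number differed together. The part of plated cell number in any line difference was not tested. For HMOX1 the responses were -2.09 and 0.37 (adjusted p of the difference 0.0941), for ALDH3A1 0.89 and -1.27 (0.0743), and for HSPA6 6.30 and 2.99 (0.178), and these differences did not pass. The count of 1 became 10 when sample number entered as a block, 3 with library size alone or with the offsets, and 0 without the complete-smoke libraries or without clean air 1, 2 or 3, filtered 2 or filtered 3.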

How the data were processed

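Whole-number counts of reads per gene were deposited by the authors, made with STAR 2.7.10b on GRCh38 per the submitters' processing notes; the annotation release is not given in the sources used here. STAR's table counts uniquely mapped reads, in 3 columns by strand. In all 6 libraries the reverse column (column 4) exceeded the opposite strand 14.4 to 17.1 times and was used, without the summary lines (multimapping, outside genes, ambiguous and unmapped reads). No 2 libraries held the same counts. Gene positions and lengths came from GENCODE 29, which held 58225 of 62649 gene IDs, and promoters from RefSeq.

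After filterByExpr and TMM scaling (factors 0.916 to 1.09), edgeR 4.0.16 quasi-likelihood tests in R 4.3.3 were fitted to the 9 A549 libraries, since the 3 complete-smoke libraries add to the estimate of spread. An adjusted p (Benjamini-Hochberg over all genes tested) under 0.05 was taken as passing. Adjusted p values are from edgeR unless another test is named. The fit was tested on simulated data with 200 changed genes. CPM values are mean ± SD of 3 libraries, and fold changes carry a standard error derived from the test statistic. Lists are described by counts and medians only. The comparison, its 34 gene lists and the 35 genes followed in both lines were chosen with earlier results of these data known. Genes named by rule were the 12 highest and 12 lowest fold changes, the 6 largest rises and falls in CPM (protein-coding, passing, at least 5 CPM on average, a count in each library, no overlap), 4 noncoding genes each way under the same limits, the 35 genes, and at most 4 members per list, 184 in all. Other list members were named after their values were seen. Some genes that the rule gave are not described.

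Sample numbers are shared across groups in the labels. Same-numbered clean-air and filtered libraries deviated together (correlations 0.268, 0.250 and 0.371 over 15244 genes, all above 0.1), so the numbers were taken as pairs. Among pairs of unlike number, clean air 1 with filtered 2 also exceeded 0.1 (0.116), and the others ran from -0.314 to 0.0255. The reported tests carry no block, as fixed in the design, and blocked values stand beside the named genes whose call they change. Alternatives were DESeq2 1.42.0 (size factors, Wald test), limma 3.58.1 voom, library size alone, other low-count filters, only the 6 or all 18 libraries, blocking on sample number, offsets for GC content and exonic length (splines, mgcv 1.9.3, 97.7% of tested genes), both together, counts that ignore strand, each library left out, and, added after seeing the data, sample numbers 1 and 2 only.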

Additional observations from a re-analysis of the deposited data

Results flagged for a closer look

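The response of KLF4, a factor of epithelial differentiation, differed between the lines by a test of the difference itself. The lines also differed in the number of cells plated per insert, whose part in the KLF4 result was not tested. As BEAS-2B minus A549 the difference was -1.30 on the log2 scale (edgeR interaction over 18 libraries, adjusted p = 0.0467), with a rise in every filtered library of A549 cells. The difference no longer passed without the complete-smoke libraries (-1.26, adjusted p = 0.0612) or without filtered 2, filtered 3 or any clean-air library (-1.22 to -1.40, highest adjusted p = 0.124), and it passed with the sample number as a block (-1.26, adjusted p = 0.00194).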

How the results depend on the processing

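Of 173 named genes that passed, 125 passed under every setting run. Leaving out each library in turn gave 1845 to 4456 higher genes, 2161 to 4559 lower genes, and 0 to 1 line differences among the 35 genes. At least 2-fold changes numbered 1903 with GC and length offsets, 2062 with the replicate block and offsets and, without filtered 3, 4884. The replicate block gave 4641 higher and 4765 lower genes, all 7112 calls among them, and 10 line differences, where library size alone and the offsets gave 3 each and the fit without complete smoke gave 0. The medians of the shortest and longest span bins moved to 0.25 and -0.13 with the offsets. NEAT1 reversed, to 0.45, with block and offsets. The causes were not tested. With 3 libraries a group, a permutation test of a single value cannot go below p = 0.1. Genes at a few counts, such as EGR3, EGR4 and RGS16 with clean air, have uncertain fold sizes.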
